A study of Rattus norvegicus with 48 samples.

Results

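The genes described here are 9 that build, bind or crosslink the hyaluronan-rich extracellular matrix, taken by symbol from the 32883 genes of each deposited count table: Acan, Vcan, Ncan, Bcan, Hapln1, Has2, Cd44, Impg1 and Impg2. They were followed in 48 RNA-seq libraries from 24 female Long-Evans rats, each of which gave 1 retina library and 1 library of the posterior eye. Young animals were 3 to 4 months old, and middle-aged animals, labelled aged, were 9 to 10 months old. At each age, 6 animals had their ovaries removed (OVX, a surgical model of menopause) and 6 had a sham operation, so each of the 4 groups held 6 animals. The labels name no other treatment or genotype, and the time from surgery to dissection and the layers kept in the posterior eye samples are not stated in the sources read here.

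Hyaluronan is a long sugar polymer spun out at the cell surface by hyaluronan synthases such as Has2, and Cd44 is its main receptor on cells. Aggrecan (Acan), versican (Vcan), neurocan (Ncan) and brevican (Bcan) form the lectican family of chondroitin sulfate proteoglycans, which bind hyaluronan at one end, and link proteins such as Hapln1 lock that bond. Between photoreceptors and the pigment epithelium lies the interphotoreceptor matrix, whose backbone is hyaluronan held by the proteoglycans Impg1 and Impg2, both made by photoreceptors.

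All 9 genes passed the filter on low counts in both tissues. Total counts per library were 11470945 to 22971367 for posterior eye and 12916146 to 30737547 for retina. Replicates were separate animals, and the biological coefficient of variation over all tested genes was 33.4% for posterior eye and 12.0% for retina. Levels are given as CPM, a gene's counts scaled to the total of its library, after TMM scaling, a correction for differences in RNA composition, and are compared within a gene and not between genes, since transcript lengths were not used. The tissue labels were checked against fixed marker lists, each summarised as the mean log2 CPM of its tested genes. Rod markers (13 of 14 tested) were at 11.1 to 11.4 in the 24 retina libraries and at 1.63 to 9.85 in the 24 posterior eye libraries, so the posterior eye held very different amounts of rod RNA from animal to animal. Scleral fibroblast markers were at 7.30 to 8.49 in posterior eye and 0.871 to 2.90 in retina libraries (10 and 7 of 10 tested), and lens markers in the retina ranged from 5.91 to 10.6. In these bulk samples fewer cells of a type and less RNA per cell cannot be told apart.

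Every one of the 9 genes differed between the tissues, 5 being higher in the posterior eye and 4 being higher in retina. The comparison used edgeR's quasi-likelihood F test over all 48 libraries with Benjamini-Hochberg adjustment, and here CPM was scaled over both tissues together. At an adjusted p under 0.05 this test called 93.0% of 17153 genes, 47.8% higher in the posterior eye and 45.2% higher in the retina, so 9 of 9 is close to the background. For Impg1, Impg2 and Ncan all 24 retina libraries lay above all 24 posterior eye libraries, as they did for 24.6% of all tested genes. No gene of the 9 had all posterior eye libraries above all retina libraries, which 27.5% of tested genes had.

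**Figure D1:**
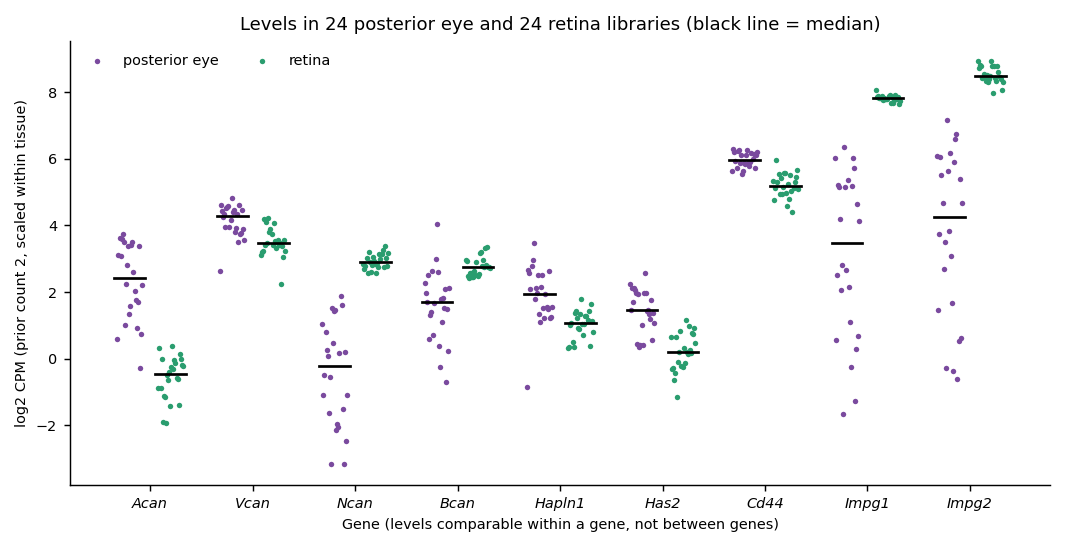
Level of each gene in the 24 posterior eye (purple) and 24 retina (green) libraries, as log2 CPM with a prior count of 2 and scaled within each tissue. Each point is 1 library and the black line is the median of 24. Impg1, Impg2 and Ncan form tight groups in the retina and long columns in the posterior eye, and Acan has the widest gap in the other direction.

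Impg1 and Impg2, the interphotoreceptor matrix proteoglycans, were the genes with the largest retina excess of the 9. Impg1 was at 216.1 ± 13.9 CPM in the retina and 23.5 ± 25.2 CPM in the posterior eye (mean ± SD, n = 24 each), and the fitted difference, posterior eye minus retina, was -3.23 ± 0.44 log2 (± SE, edgeR adjusted p = 5.83e-09). Impg2 was at 356.9 ± 63.2 and 37.1 ± 40.5 CPM, a difference of -3.27 ± 0.46 log2 (edgeR adjusted p = 1.09e-08). The size of both differences depended on the model: with the animal as a replicate block they were -4.30 and -4.41, and with limma-voom, which works on log values, -4.63 and -4.64. Both genes remained higher in the retina in each of these fits.

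In the posterior eye the pair varied with the level of photoreceptor and other retinal RNA. Impg1 ranged from 0.205 to 81.1 CPM over the 24 libraries, a 395-fold span, and Impg2 from 0.546 to 142.1 CPM, a 260-fold span, whereas in the retina the spans were 1.32-fold and 1.94-fold. The 3 posterior eye libraries lowest in Impg1 were those of animals 9, 20 and 16, at 0.205, 0.304 and 0.728 CPM, with rod marker levels of 1.63, 2.72 and 2.78. The 3 highest, animals 10, 1 and 18, were at 81.1, 65.5 and 65.4 CPM with rod levels of 9.85, 9.61 and 9.41. The 3 lowest included no young sham animal and the 3 highest no aged OVX animal. Median Impg1 was 26.9 CPM in young sham, 6.56 in young OVX, 20.5 in aged sham and 9.56 in aged OVX libraries, with wide ranges in every group. Across the 24 posterior eye libraries the log2 level of Impg1 correlated with the rod level at r = 0.995 and rho = 0.988, each with a permutation p of 1e-05, the smallest that 100000 permutations can give, and 8.47e-05 after adjustment over 144 gene and marker relations. Without the 2 libraries farthest from the median rod level r was 0.994, and within the 4 groups it was 0.993 to 0.999. For Impg2 r was 0.982 and rho 0.973 with the same permutation and adjusted p values, and r within groups was 0.984 to 0.999. Cone, horizontal cell and ganglion cell lists gave values close to these. With cone markers r was 0.990 for Impg1 and 0.979 for Impg2, and rho 0.982 and 0.962. With horizontal cell markers r was 0.953 and 0.951, and rho 0.956 and 0.951. With ganglion cell markers r was 0.938 and 0.918, and rho 0.941 and 0.911 (all with permutation p = 1e-05 and adjusted p = 8.47e-05). Müller glia and astrocyte markers gave lower values. With a prior count of 0.5 they were r = 0.767 and 0.779, and rho = 0.825 and 0.832. The cone, horizontal and ganglion cell lists had 7 of 8, 3 of 4 and 6 of 7 genes tested. Some of these genes were near the floor. Lhx1 and Onecut1 of the horizontal cell list were at 0 in 8 and 5 libraries, and Pou4f2 of the ganglion cell list in 10. The parts of these cell types were not tested separately. Both values of a pair come from the same library and share its depth and scaling. Impg1 and Impg2 correlated with each other at r = 0.988 (rho = 0.986, permutation p = 1e-05, adjusted over 39 gene pairs 7.80e-05) in the posterior eye. In the retina, where rod levels hardly varied, the pair still correlated at r = 0.794 (rho = 0.787, permutation p = 1e-05 and 3e-05, adjusted 0.00039 and 0.00117), at 0.735 without the 2 farthest libraries and at 0.574 to 0.870 within groups.

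The promoters of this pair are shown because the pair moved together and because photoreceptor genes are known targets of the homeobox factor CRX, whose binding sites carry the core TAATC. RefSeq promoters on build GRCr8, taken as 250 bases before to 50 bases after the annotated start, were found by symbol for 8 of the 9 genes, with Has2 having no entry. The core TAATC, searched on both strands, occurred in Impg1 and in Impg2 and in none of the other 6 genes. It also occurred in 22.9% of 33469 promoters of the same length, so its frequency among these 8 genes is close to the background. In the sequences below, written 5′ to 3′ on the gene's own strand, the capitals GATTA mark TAATC on the opposite strand. It sits at bases 186 to 190 and 212 to 216 of the Impg1 promoter (chr8:90269854-90270153, minus strand) and at bases 164 to 168 of the Impg2 promoter (chr11:57887401-57887700, minus strand).
Impg1: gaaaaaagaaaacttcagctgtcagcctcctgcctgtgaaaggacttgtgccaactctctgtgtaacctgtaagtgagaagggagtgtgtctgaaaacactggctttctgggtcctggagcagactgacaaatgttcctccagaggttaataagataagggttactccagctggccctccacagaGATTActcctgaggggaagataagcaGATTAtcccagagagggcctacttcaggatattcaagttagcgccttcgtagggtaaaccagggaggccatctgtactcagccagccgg
Impg2: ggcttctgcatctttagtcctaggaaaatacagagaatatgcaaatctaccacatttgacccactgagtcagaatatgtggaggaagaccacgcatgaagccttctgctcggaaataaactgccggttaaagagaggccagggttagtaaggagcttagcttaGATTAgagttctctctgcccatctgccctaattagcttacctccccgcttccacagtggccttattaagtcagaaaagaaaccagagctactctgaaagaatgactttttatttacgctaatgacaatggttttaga
The longer form TAATCC, found in 7.17% of all promoters, was in none of the 8 genes. The oestrogen response half-site GGTCA, searched on both strands, was in the promoters of Bcan, Cd44, Hapln1 and Impg2, against 40.5% of all promoters, and the palindrome GGTCANNNTGACC, in 0.0269% of all promoters, was in none of them. A match is a description of these letters and not a binding site.

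Acan, the large proteoglycan of cartilage and of perineuronal nets, was 10.8-fold higher in the posterior eye. Its level was 6.75 ± 4.46 CPM in the posterior eye and 0.602 ± 0.282 CPM in the retina, where it rested on only 3 to 28 counts per library (3.43 ± 0.27 log2, edgeR adjusted p = 1.71e-15). Hapln1, a link protein of cartilage and brain matrix, was 2.30-fold higher in the posterior eye, at 4.45 ± 2.47 against 1.92 ± 0.560 CPM (1.20 ± 0.18 log2, edgeR adjusted p = 5.43e-08). Both genes varied in the posterior eye with the cartilage markers, of which all 12 were tested and only Matn1 was at 0, in 1 library. Acan correlated with the cartilage level at r = 0.870 and rho = 0.910, and Hapln1 at r = 0.874 and rho = 0.894 (permutation p = 1e-05, adjusted 8.47e-05 for all 4 values). Within groups the r of Acan was 0.835 to 0.974 and that of Hapln1 0.806 to 0.975, and without the 2 farthest libraries they were 0.874 and 0.835. The posterior eye library of animal 1 had the lowest cartilage level of all, 3.47, the lowest depth and the lowest Hapln1, 0.441 CPM, and its Acan was 1.41 CPM. Acan and Hapln1 correlated with each other in the posterior eye at r = 0.781 and rho = 0.881 (permutation p = 1e-05, adjusted 7.80e-05), whereas in the retina r was -0.08 and rho -0.16 (permutation p = 0.692 and 0.463, adjusted 0.970 and 0.871).

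Vcan, the most widely expressed lectican, was 1.72-fold higher in the posterior eye, at 19.3 ± 5.56 against 11.2 ± 3.23 CPM (0.79 ± 0.12 log2, edgeR adjusted p = 9.07e-08). Its posterior eye level varied with the melanocyte markers (4 of 5 tested, genes that the pigment epithelium also expresses) at r = 0.760 and rho = 0.603 (permutation p = 1e-05 and 0.00216, adjusted 8.47e-05 and 0.0148). That relation rested in part on few libraries, since r was 0.560 without the 2 farthest, and it ran from -0.132 to 0.954 within groups, being positive in 3 of 4.

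Ncan and Bcan, the lecticans most restricted to nervous tissue, were higher in the retina. Ncan was at 7.23 ± 1.18 CPM in the retina and 1.13 ± 1.12 CPM in the posterior eye, where it ranged from 0 to 68 counts per library (-2.68 ± 0.31 log2, edgeR adjusted p = 7.34e-11). With limma-voom the difference was -3.60. Posterior eye Ncan varied with the rod level at r = 0.847 and rho = 0.867 (permutation p = 1e-05, adjusted 8.47e-05, r within groups 0.791 to 0.961, 0.834 without the 2 farthest). The ganglion cell and Müller glia levels gave r = 0.873 and r = 0.858, with rho of 0.875 and 0.877 and the same p values. The 3 lists were read in the same libraries, and their parts in the Ncan level were not tested separately.

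Bcan was at 6.55 ± 1.40 CPM in the retina and 3.96 ± 3.43 CPM in the posterior eye (-0.81 ± 0.20 log2, edgeR adjusted p = 0.000308). Its posterior eye level followed markers of oligodendrocytes and their precursors, all 10 tested, at r = 0.865 and rho = 0.770 (permutation p = 1e-05 and 4e-05, adjusted 8.47e-05 and 0.00032). Without the 2 farthest libraries r was 0.822, and within groups it was 0.691 to 0.970. Of these markers Olig2 was at 0 in 4 libraries. Müller glia and astrocyte markers also varied with Bcan. With a prior count of 0.5 they gave r = 0.758 and rho = 0.683, beside 0.861 and 0.757 for the oligodendrocyte list. The parts of these lists in the Bcan level were not tested separately. Animal 12, a young OVX animal, had both the highest Bcan, 16.5 CPM, and the highest oligodendrocyte level, 6.88.

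**Figure D2:**
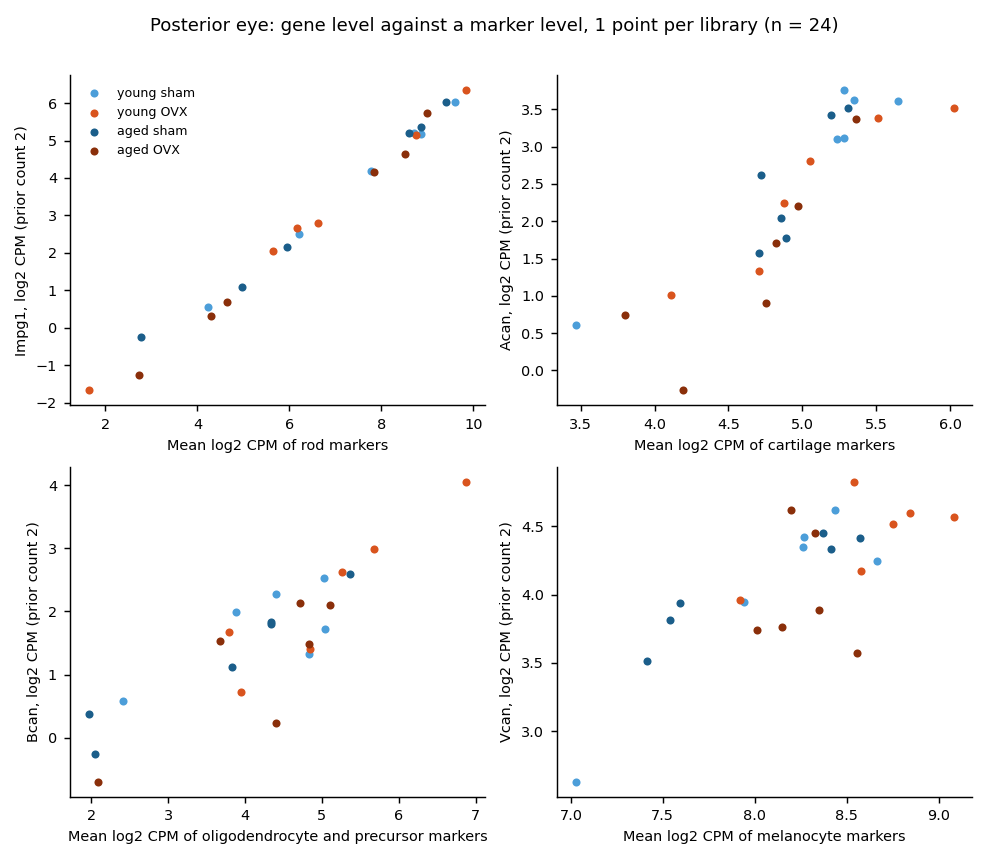
Log2 CPM of 4 genes in the posterior eye against the mean log2 CPM of a marker list, 1 point per library (n = 24) coloured by group: Impg1 against rods, Acan against cartilage, Bcan against oligodendrocytes and precursors, and Vcan against melanocytes. Impg1 lies almost on a line (r = 0.995), and the 4 groups overlap along each axis, some of them covering only a narrow part of it.

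Each lectican gene neighbours a link protein gene in the rat genome, an arrangement read from the RefSeq gene table on GRCr8: Vcan lies beside Hapln1, Acan beside Hapln3, Bcan beside Hapln2 and Ncan beside Hapln4. The neighbours did not vary alike. Bcan and Hapln2 correlated in the posterior eye at r = 0.896 and rho = 0.867 (permutation p = 1e-05, adjusted 7.80e-05, r within groups 0.820 to 0.983, 0.812 without the 2 farthest). Ncan and Hapln4 gave r = 0.694 and rho = 0.738 (permutation p = 0.00019 and 6e-05, adjusted 0.00123 and 0.00039, r within groups 0.658 to 0.810, 0.662 without the 2 farthest). Vcan and Hapln1 gave r = 0.454 and rho = 0.155 (permutation p = 0.0318 and 0.472, adjusted 0.0826 and 0.575), and without the 2 farthest libraries r was -0.08. Acan and Hapln3 gave r = 0.105 and rho = 0.123 (permutation p = 0.625 and 0.567, adjusted 0.674 and 0.670). In tissue preference Bcan and Hapln2 went opposite ways: Hapln2, a link protein of myelinated tracts, was higher in the posterior eye by 3.65 ± 0.31 log2 (edgeR adjusted p = 1.14e-14) and Bcan lower. Ncan and Hapln4 were both higher in the retina, Hapln4 by 28.5 against 3.98 CPM (-2.95 ± 0.33 log2, edgeR adjusted p = 4.28e-11).

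Has2, a main hyaluronan synthase of connective tissue, was 2.80-fold higher in the posterior eye, at 3.06 ± 1.36 against 1.09 ± 0.449 CPM (1.48 ± 0.17 log2, edgeR adjusted p = 8.64e-11). In the retina it rested on 7 to 37 counts per library. Has1 was likewise higher in the posterior eye (1.79 ± 0.17 log2, edgeR adjusted p = 2.44e-13), whereas Has3 was higher in the retina (-0.63 ± 0.08 log2, edgeR adjusted p = 1.59e-09). In the posterior eye Has2 was lower where Müller glia and astrocyte markers were higher (r = -0.544, rho = -0.525, permutation p = 0.00617 and 0.00896, adjusted 0.0329 and 0.0425). It was negative in 3 of 4 groups, r within groups being -0.849 to 0.366, and r was -0.469 without the 2 farthest libraries.

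Cd44, the hyaluronan receptor, was 1.86-fold higher in the posterior eye, at 66.9 ± 11.1 against 36.1 ± 8.87 CPM (0.89 ± 0.09 log2, edgeR adjusted p = 8.46e-13). It was the steadiest of the 9 genes in the posterior eye, with a 1.68-fold span over the 24 libraries. It was lower there where retinal markers were higher, with r = -0.532 and rho = -0.557 for rods (permutation p = 0.00807 and 0.00563, adjusted 0.0401 and 0.0338, r within groups -0.842 to -0.106, -0.584 without the 2 farthest). Retinal Cd44 varied with the Schwann cell list, of which 3 of 5 genes were tested there, at r = 0.877 and rho = 0.846 (permutation p = 1e-05, adjusted 0.00072), with r within groups of 0.736 to 0.955 and 0.851 without the 2 farthest. It varied almost as closely with the lens markers, all 9 tested, at r = 0.840 and rho = 0.831 (permutation p = 1e-05, adjusted 0.00072), with r within groups of 0.764 to 0.939 and 0.761 without the 2 farthest. The summed level of the lens markers in the retina was 4974.3 to 56702 CPM in young sham and 13987 to 58935 CPM in young OVX animals, and 3295.9 to 26445 and 4396.7 to 35452 CPM in their aged counterparts. Pmp22, of the Schwann cell list, was the retina gene most like Cd44 once group means were removed (r = 0.952 over 24 libraries). It is among the 3 tested genes of that list, so the list's r is not separate from it. Whether the list marks Schwann cells in the retina was not tested. Of these lists only the lens level was used as a covariate.

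OVX did not move any of the 9 genes past the test in either tissue. Of the 9, 0 were called in the posterior eye at an adjusted p under 0.05 in young animals, where the same edgeR test called 0.00610% of 16401 genes. In aged animals, for the mean over both ages and for the interaction of OVX and age, 0 of 9 were also called, with 0% of all genes called in each of the 3. At an unadjusted p under 0.05 the young contrast and the mean over both ages held 1 of the 9 genes each, Has2, and the other 2 contrasts none, with 1023, 938, 422 and 487 of all genes in the order young, mean, aged and interaction. DESeq2 and limma-voom called 0 of 9 in each contrast as well. The median log2 fold change of the 9 was -0.05 in young and -0.45 in aged animals, against -0.0097 and 0.0031 over all tested genes. Of the 9, 5 and 8 lay below 0, and signs over all genes were not counted. Impg1 varied with Impg2, and Acan with Hapln1, in this tissue, so the 9 signs are not separate observations. For every one of the 9 genes the OVX and sham animals of each age overlapped.

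The nearest approach to a difference was in Has2. Young sham animals ranged from 2.63 to 4.58 CPM with a median of 4.13, and young OVX animals from 1.16 to 3.79 with a median of 1.57. All 6 young OVX animals lay below the young sham median, but the groups overlapped, because animals 7 and 9 of the OVX group were at 3.79 and 3.74 CPM. Aged sham animals ranged from 1.23 to 5.89 CPM with a median of 3.23, and aged OVX animals from 1.38 to 3.27 with a median of 2.32. The fold changes were -0.81 ± 0.34 log2 in young animals (edgeR adjusted p = 0.725), -0.54 ± 0.34 in aged animals (adjusted p = 1.00) and -0.67 ± 0.24 for the mean over both ages (adjusted p = 0.715). With the rod level added to the model as a covariate the mean over both ages was -0.82 ± 0.21 (edgeR adjusted p = 0.338), with the oligodendrocyte level -0.49 ± 0.22 and with the melanocyte level -0.52 ± 0.28 (adjusted p = 0.999 and 1.00), the last 2 covariates chosen after the values were seen. The oligodendrocyte level averaged 4.27 and 5.06 in young sham and OVX animals and 3.65 and 4.13 in aged ones, and Has2 correlated with it at r = -0.512 and rho = -0.425 (permutation p = 0.010 and 0.0385, adjusted 0.0464 and 0.139, r within groups -0.822 to -0.04, -0.489 without the 2 farthest). These values rest on 16 to 122 counts per library.

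Acan had lower group means after OVX at both ages without passing the test. Young sham animals ranged from 1.41 to 13.4 CPM with a median of 10.3, and young OVX animals from 1.91 to 11.3 with a median of 5.76. Aged sham animals ranged from 2.86 to 11.3 CPM with a median of 5.02, and aged OVX animals from 0.722 to 10.3 with a median of 2.46. Every group thus held animals with little Acan and animals with more than 10 CPM. The fold change was -0.59 ± 0.57 log2 in young animals (edgeR adjusted p = 0.982), -0.79 ± 0.58 in aged animals and -0.69 ± 0.41 for the mean (adjusted p = 0.941). The summed cartilage markers were at 361.4 to 1164.5 CPM in young sham and 695.1 to 1387.9 CPM in young OVX animals, and at 634.1 to 886.6 and 775.2 to 1021.3 CPM in their aged counterparts. Their mean log2 level, the measure that Acan was correlated with, averaged 5.04 in young sham, 5.05 in young OVX, 4.95 in aged sham and 4.65 in aged OVX libraries. With the cartilage level as a covariate, a setting chosen after the correlation was seen, the mean was -0.55 ± 0.21 (adjusted p = 0.787).

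Bcan and Vcan had higher means in young OVX than in young sham animals, and in both cases a marker level was higher in the same group. Bcan ranged from 1.39 to 5.64 CPM with a median of 3.52 in young sham animals and from 1.54 to 16.5 with a median of 4.57 in young OVX animals (0.83 ± 0.56 log2, edgeR adjusted p = 0.899). Without animal 12 the difference was 0.24 log2. The summed level of the oligodendrocyte markers was 303.0 to 1049.8 CPM in young sham and 428.0 to 4434.5 CPM in young OVX animals. With their level as a covariate the Bcan difference was -0.13 ± 0.32. Vcan ranged from 6.08 to 24.4 CPM with a median of 19.6 in young sham and from 15.5 to 28.3 with a median of 23.2 in young OVX animals (0.31 ± 0.25 log2, edgeR adjusted p = 0.942). The summed melanocyte markers were 1218.5 to 3922.9 CPM and 1972.0 to 4774.9 CPM in these groups, and with their level as a covariate the Vcan difference was -0.03 ± 0.20. Both covariates were chosen after their correlations with these genes were seen in the same libraries, so these fits are no test of a cause. The part of these markers in either difference was not tested.

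**Figure D3:**
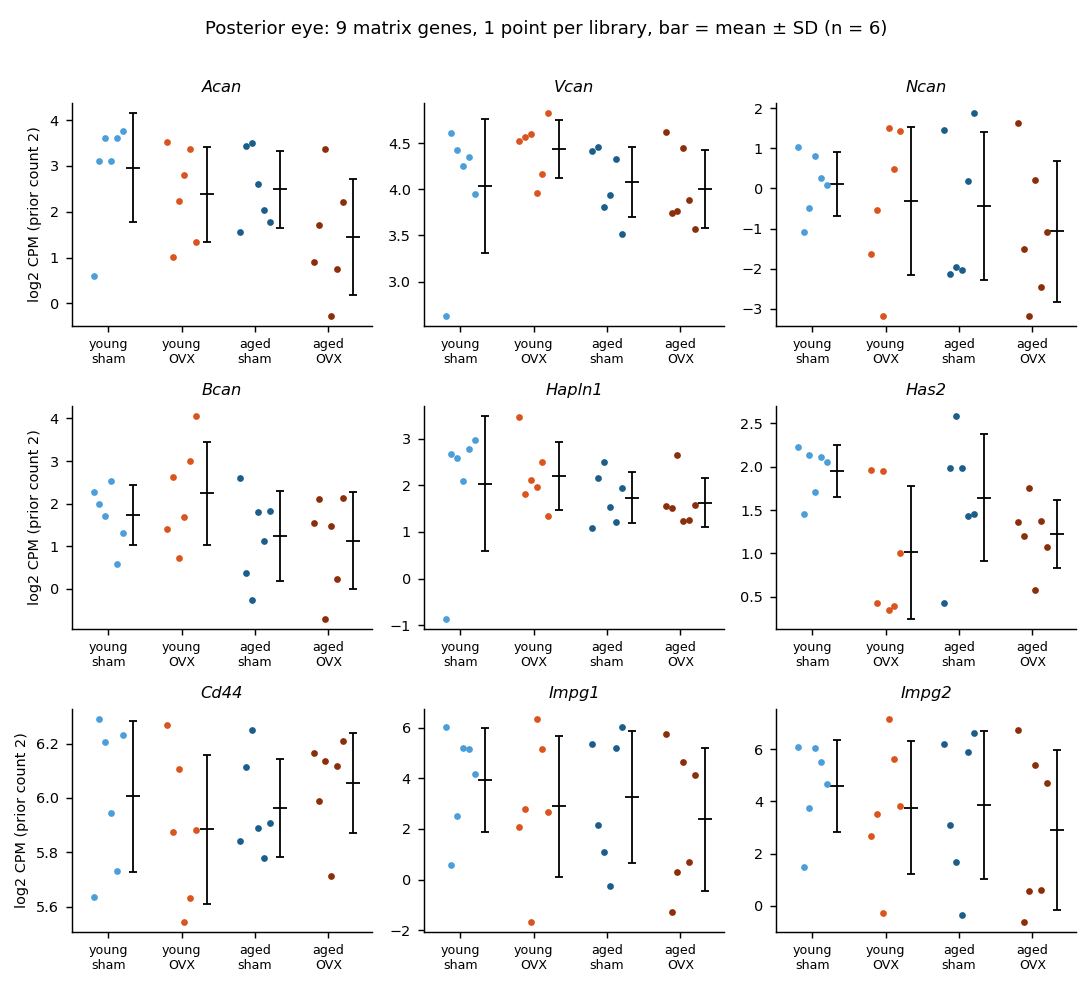
Log2 CPM (prior count 2) of the 9 genes in the posterior eye by group, 1 point per library, with the mean ± SD of the log2 values of 6 animals beside the points. The groups overlap in every panel, and Impg1 and Impg2 span several log2 units within each group.

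Impg1 and Impg2 could not resolve an OVX difference in the posterior eye. Impg1 ran from 1.36 to 65.5 CPM in young sham and 0.205 to 81.1 CPM in young OVX animals, and from 0.728 to 65.4 and 0.304 to 53.1 CPM in aged sham and OVX animals, with medians of 26.9, 6.56, 20.5 and 9.56. Impg2 ran from 2.67 to 67.2, 0.718 to 142.1, 0.662 to 97.1 and 0.546 to 106.3 CPM in the same order, with medians of 35.4, 12.7, 34.1 and 13.5. For the mean over both ages the fold change was -0.44 ± 0.82 log2 for Impg1 and -0.21 ± 0.83 for Impg2. The summed rod markers ranged from 753.7 to 32724 CPM in young sham and 100.9 to 35532 CPM in young OVX animals, and from 248.7 to 25056 and 220.9 to 20504 CPM in their aged counterparts, with none of the 13 at 0 in any library. Adding the rod level as a covariate gave an Impg1 difference of -0.06 ± 0.08. Impg1 followed the rod level almost on a line in these same libraries. This fit therefore reads only the part of Impg1 that does not follow rods, and a cause of the wider differences was not tested.

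The other 3 genes had no fold change as large as its error at either age. Cd44 was at 65.2 ± 12.2 CPM in young sham and 59.9 ± 11.5 CPM in young OVX animals, and at 62.7 ± 8.16 and 66.8 ± 7.92 CPM in aged sham and OVX animals, and its OVX fold changes were -0.12 ± 0.13 and 0.09 ± 0.13 log2. These are the narrowest OVX errors of the 9 genes in this tissue. Hapln1 was at 5.20 ± 2.62, 5.07 ± 3.09, 3.44 ± 1.37 and 3.18 ± 1.48 CPM in the same order, and Ncan at 1.10 ± 0.604, 1.23 ± 1.19, 1.27 ± 1.49 and 0.781 ± 1.13 CPM (n = 6 each). The OVX fold change of Ncan was 0.18 ± 0.95 log2 in young and -0.69 ± 0.97 in aged animals (edgeR adjusted p = 0.999 and 1.00), and the young value was -0.77 with limma-voom.

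In the retina, where the spread between animals was smaller, OVX again called 0 of the 9 genes. The edgeR test called 0.0194% of 15481 genes in young animals, 0.00646% in aged animals, 0.0517% for the mean over both ages and 0.0452% for the interaction of OVX and age. At an unadjusted p under 0.05 there were 2 of the 9 genes in young animals (Hapln1 and Impg2), 0 in aged animals, 1 for the mean (Impg2) and 1 for the interaction (Hapln1), with 1807, 1001, 1678 and 962 of all genes. DESeq2 and limma-voom called 0 of 9 in each. The median log2 fold change of the 9 was -0.06 in young and 0.00046 in aged animals, against -0.00072 and -0.00055 over all genes.

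Hapln1 had the smallest p of the 9 in the retina. It ranged from 1.14 to 2.00 CPM with a median of 1.25 in young sham animals and from 1.73 to 2.61 with a median of 2.34 in young OVX animals. All 6 young OVX animals lay above the young sham median, and the groups overlapped between 1.73 and 2.00 CPM. Aged sham animals ranged from 1.52 to 3.37 CPM with a median of 2.14, and aged OVX animals from 1.21 to 3.01 with a median of 2.12. Young sham was thus the low group, and the other 3 lay together. The OVX fold change was 0.61 ± 0.21 log2 in young animals (edgeR adjusted p = 0.257) and -0.08 ± 0.21 in aged animals. The difference between the ages was -0.70 ± 0.30 log2 (edgeR adjusted p = 0.762). These values rest on 18 to 70 counts per library.

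Impg2 was next. Young sham animals ranged from 342.2 to 490.6 CPM with a median of 431.9, and young OVX animals from 313.1 to 363.5 with a median of 345.0. Each of the 6 young OVX animals lay below the young sham median, with overlap between 342.2 and 363.5 CPM. Aged sham animals ranged from 253.4 to 490.0 CPM and aged OVX animals from 266.6 to 440.4, with medians of 388.9 and 343.1. The fold change was -0.30 ± 0.13 log2 in young animals (edgeR adjusted p = 0.362), -0.12 ± 0.13 in aged animals and -0.21 ± 0.09 for the mean (adjusted p = 0.374). With the lens level as a covariate, a setting chosen after the values were seen, the young difference was -0.29 and the mean -0.15. Its partner Impg1 was at 235.4 ± 16.0 CPM in young sham and 225.3 ± 6.99 in young OVX animals, a difference of -0.06 ± 0.05 log2 (adjusted p = 0.668).

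Vcan in the retina ranged from 10.01 to 16.6 CPM with a median of 11.3 in aged sham animals and from 4.60 to 11.8 with a median of 9.85 in aged OVX animals. The groups overlapped, and the difference was -0.37 ± 0.21 log2 (edgeR adjusted p = 0.811), with an interaction of OVX and age of -0.54 ± 0.29 (adjusted p = 0.804). Acan was at 0.570 ± 0.365 CPM in young sham and 0.425 ± 0.200 in young OVX animals, a difference of -0.40 ± 0.38 log2 on few counts (edgeR adjusted p = 0.746), and at 0.810 ± 0.215 and 0.707 ± 0.260 CPM in aged sham and OVX animals. Has2 was at 0.919 ± 0.429 and 0.895 ± 0.441 CPM in young and at 1.34 ± 0.544 and 1.39 ± 0.305 CPM in aged sham and OVX animals. Ncan was at 7.20 ± 1.19, 7.20 ± 0.763, 7.49 ± 1.16 and 8.37 ± 1.49 CPM in sham then OVX animals, the young pair of groups given before the aged pair. Cd44 was at 41.8 ± 11.9, 39.2 ± 7.92, 33.1 ± 7.49 and 37.2 ± 9.93 CPM in the same order (n = 6 each).

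**Figure D4:**
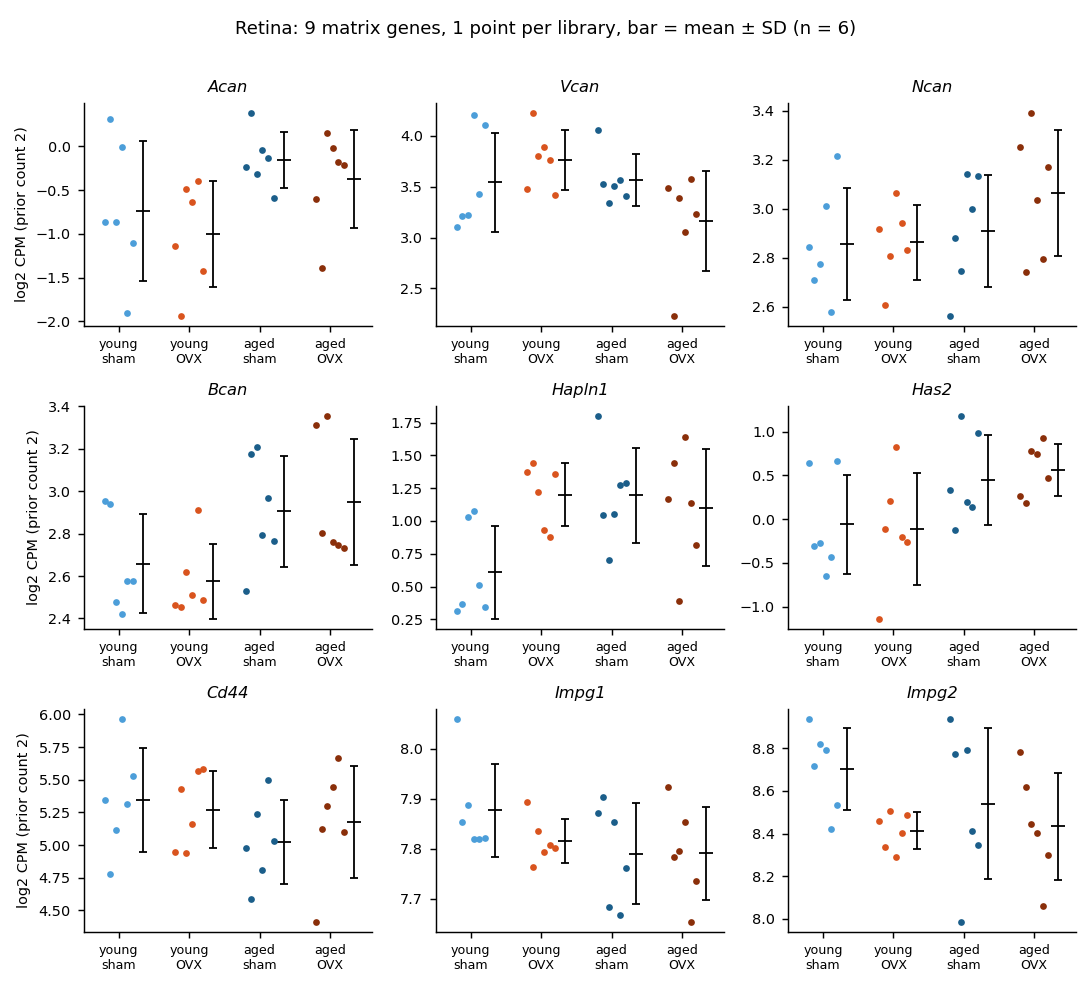
Log2 CPM (prior count 2) of the 9 genes in the retina by group, 1 point per library, with the mean ± SD of the log2 values of 6 animals beside the points. Hapln1 is lowest in young sham animals and Impg1 stays between 201.3 and 266.8 CPM in all 24 libraries.

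**Figure D5:**
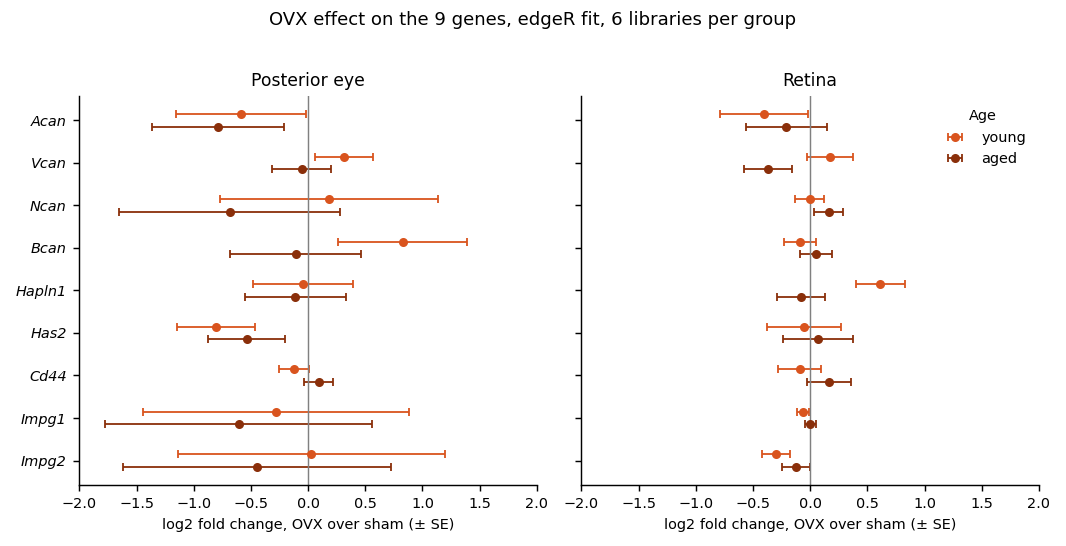
Log2 fold change of OVX over sham with its SE from the edgeR fit, in young (orange) and aged (brown) animals, for the posterior eye and the retina on the same scale. Impg1 and Impg2 have the widest bars in the posterior eye and Impg1 the narrowest in the retina.

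Age did not move any of the 9 genes past the test either. In the posterior eye 0 of 9 were called between aged and young sham animals and 0 of 9 between aged and young OVX animals, with 0% of all genes called by edgeR in both, and DESeq2 and limma-voom also called 0 of 9. At an unadjusted p under 0.05 there were 0 and 1 of the 9 (Bcan, in OVX animals) and 481 and 1663 of all genes. In both contrasts 7 of the 9 lay below 0, and signs over all genes were not counted. The median log2 fold change of the 9 was -0.11 in sham and -0.44 in OVX animals, against -0.016 and -0.018 over all tested genes. Impg1 and Impg2 varied together in this tissue, so the 9 signs are not separate observations. Bcan had a median of 4.57 CPM in young OVX animals and 2.74 CPM in aged OVX animals, which ranged from 0.507 to 4.28 CPM, all 6 below the young OVX median (-1.27 ± 0.57 log2, edgeR adjusted p = 0.454). With the oligodendrocyte level as a covariate this was -0.36 ± 0.32. Acan, between the same groups, had a difference of -0.76 ± 0.58 log2 (adjusted p = 0.724), and -0.20 ± 0.30 with the cartilage level as a covariate. In sham animals its difference was -0.56 ± 0.57. Hapln1 differed by -0.60 ± 0.44 log2 between sham animals and -0.67 ± 0.44 between OVX animals (adjusted p = 0.663 for the second), and by -0.27 ± 0.26 and -0.12 ± 0.26 with the cartilage level as a covariate. For Vcan in OVX animals the difference was -0.41 ± 0.25 (adjusted p = 0.629), and -0.11 ± 0.19 with the melanocyte level. The cartilage, oligodendrocyte and melanocyte covariates were chosen after the correlations were seen.

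In the retina edgeR called 0 of 9 with age in sham animals, against 0.0388% of all genes, and 0 of 9 in OVX animals, against 0.0711%, as did DESeq2 and limma-voom. Below an unadjusted p of 0.05 were 1 of the 9 in sham animals (Hapln1) and 2 in OVX animals (Bcan and Vcan), with 1656 and 1429 of all genes. Bcan had higher means in aged animals under both surgeries: young sham animals ranged from 5.24 to 7.65 CPM and aged sham animals from 5.67 to 9.12, with medians of 5.86 and 7.26 (0.26 ± 0.14 log2, adjusted p = 0.525). Young OVX animals ranged from 5.38 to 7.41 CPM and aged OVX animals from 6.53 to 10.1, with medians of 5.55 and 6.76, and all 6 aged OVX animals lay above the young OVX median (0.40 ± 0.14 log2, edgeR adjusted p = 0.356). Vcan ranged from 10.6 to 18.6 CPM in young OVX animals and from 4.60 to 11.8 in aged OVX animals (-0.57 ± 0.21 log2, edgeR adjusted p = 0.379), again with overlap. Hapln1 differed by 0.62 ± 0.21 log2 between sham animals (adjusted p = 0.284), and this comparison uses the same young sham animals as the OVX comparison above. Has2 differed by 0.52 ± 0.31 in sham and 0.64 ± 0.32 in OVX animals (adjusted p = 0.560 and 0.554), Acan by 0.69 ± 0.38 (adjusted p = 0.605) and Ncan by 0.22 ± 0.13 (adjusted p = 0.613) in OVX animals. Cd44 was the gene whose age difference turned with a marker: it was -0.33 ± 0.19 log2 between sham animals (adjusted p = 0.540) and 0.10 ± 0.12 with the lens level as a covariate, a setting chosen after the values were seen. Pigment epithelium markers in the retina, all 10 tested, averaged 4.03 log2 CPM in young sham, 4.59 in young OVX, 4.50 in aged sham and 3.79 in aged OVX libraries. With their level as a covariate the Cd44 difference was -0.10 ± 0.21, the Acan difference with age in OVX animals 0.33 ± 0.54 and the aged OVX difference of Impg2 -0.04 ± 0.16, and none of the 9 genes was called in any retinal contrast.

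Whether OVX or age acted differently in the tissues was tested in the fit over all 48 libraries. For OVX 0 of 9 genes were called, against 0.00583% of all genes, and for age in sham animals 0 of 9, against 0%. At an unadjusted p under 0.05 edgeR had 0 and 1 of the 9 (Hapln1, with age), with 848 and 540 of all genes, and DESeq2 called none of the 9 in either.

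The wider pathway was read from 6 gene lists, fixed with earlier results of these data known. Across tissues the CD44 partners stood highest in the posterior eye, 10 of 12 tested genes being called higher and 1 lower, with a median of 1.81 log2 against 0.05 over all genes. Over all tested genes 47.8% were called higher in the posterior eye and 45.2% higher in the retina. Of the hyaluronan list 13 of 21 were higher and 8 lower in the posterior eye (median 1.00 log2), among them Hyal2, a hyaluronidase, at 120.5 against 36.7 CPM. Of the link proteins and perineuronal net partners 9 of 14 were higher and 4 lower (median 0.86). Tnr, the tenascin that crosslinks lecticans in nets, was at 66.8 CPM in the retina and 7.53 CPM in the posterior eye, and Ptprz1, a receptor phosphatase and proteoglycan, went the other way, at 21.4 and 62.6 CPM. Of the chondroitin sulfate genes 20 of 28 were higher and 8 lower (median 0.77), and of the proteases that cut lecticans 9 of 14 were higher and 5 lower (median 1.05). Adamts4 and Adamts5, known as aggrecanases, were both higher in the retina, at 5.39 against 2.28 CPM and 49.7 against 21.8 CPM. Of the interphotoreceptor matrix list 5 of 8 were higher in the retina and 3 in the posterior eye (median -1.27). Rbp3, the retinoid carrier of that matrix, was at 3621.5 CPM in the retina and 367.7 in the posterior eye, a difference of -3.34 log2 beside -3.23 and -3.27 for Impg1 and Impg2.

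With OVX and age edgeR called none of these list genes in any of the 6 contrasts of either tissue. The tested genes numbered 20 hyaluronan, 14 link protein, 28 chondroitin sulfate, 13 protease, 12 CD44 partner and 8 interphotoreceptor matrix genes in the posterior eye, and 17, 13, 27, 12, 12 and 8 in the retina. In young posterior eye 3, 2, 1, 3, 1 and 0 of them had an unadjusted p under 0.05, and in young retina 2, 2, 1, 3, 0 and 0, beside 1023 of 16401 and 1807 of 15481 of all genes. The median young OVX fold changes of the lists were -0.0074, 0.08, 0.08, 0.14, 0.11 and 0.02 log2 in the posterior eye, against -0.0097 over all genes, and -0.02, 0.07, -0.03, 0.05, 0.0068 and -0.04 in the retina, against -0.00072. Adamts1, a protease that cuts aggrecan and versican, had the smallest p: its posterior eye mean was 109.3 CPM in young sham and 152.6 in young OVX animals (0.48 ± 0.12 log2, edgeR adjusted p = 0.661). In the retina the means were 51.4 and 41.5 CPM (-0.31 ± 0.09 log2, adjusted p = 0.181). DESeq2 called Adamts1 in young posterior eye, with age in OVX posterior eye, for the mean over both ages in the retina and for the difference of the OVX effect between tissues, and in the retina it called Uxs1 and Hapln4 with age. Hyal2 was at 99.7 CPM in young sham and 131.2 in young OVX posterior eye (0.40 ± 0.14 log2, edgeR adjusted p = 0.676), and Chst3, a chondroitin sulfotransferase, at 4.59 and 6.46 CPM (0.49 ± 0.16, adjusted p = 0.661). Adamts15 and Mmp3, both matrix proteases, had OVX differences of -0.65 ± 0.19 and -0.96 ± 0.30 log2 for the mean over both ages in the posterior eye (adjusted p = 0.665 and 0.700). Retinal Tnr was at 80.9 and 61.98 CPM in young sham and OVX animals and at 76.3 and 60.4 CPM in aged sham and OVX animals (mean over both ages -0.36 ± 0.11 log2, edgeR adjusted p = 0.265). Dse, an epimerase that makes dermatan sulfate, had a retinal OVX difference of 0.39 ± 0.12 log2 and Layn, a hyaluronan receptor, of -0.27 ± 0.08, again for the mean over both ages (adjusted p = 0.263 and 0.241).

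The genes whose log2 CPM followed each of the 9 most closely over 24 libraries, after group means were subtracted, differed from member to member. In the posterior eye Impg1 was closest to Crx, Cartpt and Cplx3 (r = 0.997 each), and Impg2 had Syp and Sncb among its 3 closest (0.991 and 0.990). Ncan was closest to Spock3, Gpr37 and Syt11 (0.956, 0.955 and 0.953), and Bcan to Hepacam, Mog and Tmem88b (0.911, 0.892 and 0.890). Acan was closest to Corin, LOC297568 and Snorc (0.921, 0.889 and 0.887), and Hapln1 to Tnn, Col10a1 and Grem1 (0.877, 0.867 and 0.851). Vcan was closest to Gja1, Enpp2 and F5 (0.945, 0.935 and 0.926), Has2 to Cdca7, Dlst and Il33 (0.864, 0.858 and 0.855) and Cd44 to Ripk1, Tm9sf2 and Rbm47 (0.907, 0.902 and 0.902). In the retina Vcan was closest to Pear1, Fbn1 and F5 (0.858, 0.857 and 0.855), so F5 was among the 3 closest to Vcan in both tissues. Impg2 was closest there to Atrnl1, Ubr3 and Cnot1 (0.960, 0.958 and 0.956), and Impg1 had Sugp2 and Rp1, a photoreceptor axoneme gene, among its 3 closest (0.898 and 0.878).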

How the data were processed

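RNA was measured in 24 retina and 24 posterior eye libraries. Per the labels' protocols, SMART-Seq v4 full-length cDNA from a small amount of total RNA was made into Nextera XT libraries and read from both ends; no strand marking is described, so reads of overlapping genes can be mixed. The authors deposited whole-number counts per gene, unnormalized, 1 table per tissue. The submitters' processing notes name STAR 2.7.3a, HTSeq, DESeq2 and Rnor_6.0; how reads were counted and against which annotation is not given in the sources used here. No columns of other samples were used (0 such columns).

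Groups and animals were taken from the labels. Genes were filtered with filterByExpr (16401 tested in the posterior eye, 15481 in the retina, 17153 across tissues), scaled by TMM and fitted with edgeR 4.0.16 (R 4.3.3), giving each group its own mean (4 groups and 24 libraries within a tissue, 8 and 48 across tissues). Two-sided quasi-likelihood F tests were adjusted by Benjamini-Hochberg over all tested genes and called at 0.05. The SE is the fold change over the square root of F, an approximation. Log2 CPM used a prior count of 2. Correlations ran over 24 libraries with 100000 permutations. The procedure was tested on simulated data. Retina and posterior eye of the same animal were paired by the labels; their deviations from group means correlated at a median of 0.07 (-0.04 to 0.28, 24 pairs).

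All 9 genes are always named. From the pathway lists, called genes and, where none was called, up to 2 with the smallest p per OVX contrast are named, with a fixed set that includes Has1, Has3, Hapln4, Hyal2, Tnr and Rbp3, and the 3 genes most like each member by correlation. A few genes that this rule names are not reported here. The members and lists were chosen with earlier results of these data known. Alternatives were DESeq2 1.42.0, limma-voom (limma 3.58.1), DESeq2 size factors, no filter, replicate blocks, marker covariates, only the groups compared, and leaving out each library. For the posterior eye, 25 gene names turned into dates stayed in the fit unnamed.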

Additional observations from a re-analysis of the deposited data

Results flagged for a closer look

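In each of 72 sets of 6 animals (9 genes, 2 tissues, 4 groups) the highest and the lowest library were checked for a gap to the next library of more than 0.625 of the range of the 6. In 7 sets the highest library stood apart. For independent, normally distributed values chance alone would set apart about 1 in 20 groups. CPM values need not be normal and the 72 sets share animals, so that rate may not hold here. In the posterior eye these were Ncan in aged OVX animal 19, at 2.97 CPM with the next library at 1.05, and Impg2 in young OVX animal 10, at 142.1 CPM with the next at 49.2. Hapln1 stood apart in young OVX animal 7, at 11.0 CPM against 5.59, and in aged OVX animal 21, at 6.14 CPM against 2.86. In the retina they were Vcan in aged sham animal 13, at 16.6 CPM against 11.8, Bcan in young OVX animal 11, at 7.41 CPM against 6.04, and Impg1 in young sham animal 1, at 266.8 CPM against 236.6.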

How the results depend on the processing

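Neither OVX nor age called any of the 9 genes in any of 296 alternative results within the tissues, each being a contrast read under an alternative setting. Among the fold changes of OVX or age that were rerun, the smallest adjusted p was 0.083 (edgeR, Impg2, young retina, fitted on the 2 groups compared). Of the 48 fold changes rerun under the alternatives, those that changed sign, none of them called, were: for Impg2 in the posterior eye, OVX mean over both ages, 0.0032 with the rod covariate and 0.037 without aged sham animal 18 (range over left-out libraries -0.83 to 0.037); for Bcan and Vcan in young posterior eye -0.13 and -0.027 with the oligodendrocyte and melanocyte covariates; for Ncan in young posterior eye (0.18) -0.77 with limma-voom, -0.042 with the numbered replicate block, -0.21 with the oligodendrocyte covariate, and -0.24 and -0.14 without young OVX animals 10 and 12 (range over left-out libraries -0.24 to 0.46); for Cd44 in the retina with age in sham animals 0.10 with the lens covariate. Hapln1 in aged retina, -0.08 for OVX, ranged from -0.21 to 0.060 when each library was left out, being 0.060 without aged sham animal 13 and 0.032 without aged OVX animal 21. With the number in the sample descriptions as a replicate block, Has2 in the posterior eye (OVX mean over both ages) was -0.73 ± 0.22 (edgeR adjusted p = 0.830) and no gene of the 9 was called. What same-numbered libraries share beyond the number is not stated in the labels. Their deviations from group means correlated at a median of 0.34 in the posterior eye (22 of 36 pairs over 0.1) and 0.02 in the retina (4 of 36), and a shared batch was not tested. The block by animal, in the comparison of tissues, changed no call.

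Counts over all genes depended on the tool. DESeq2 called 12 genes in young posterior eye (edgeR 1), 29 for the OVX mean (0), 5 and 65 with age in sham and OVX animals (0 and 0). In the retina it called 62 (3), 9 (1), 51 (8) and 22 (7) for OVX in young and aged animals, the mean and the interaction, and 66 (6) and 68 (11) with age, and across tissues 10 (1) and 2 (0) for OVX and age. DESeq2 gave no adjusted p for Impg1 between tissues. Other settings gave 0 to 17 genes within tissues. Retinal Acan, Has2 and Hapln1 had at most 70 counts per library, and the part of depth in their tests was not tested.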
